A study of Mus musculus with 12 samples.

Results

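The measurements concern whether PB1046 was followed by different transcript levels in 2 dystrophic mouse genotypes. The quantity is an interaction: the log2 difference of PB1046 and saline in mdx:Utrn+/- cardiomyocytes minus the same difference in mdx cardiomyocytes. It uses all 12 libraries of the series and was computed for the 12798 of 18530 genes that had at least 1 TPM (reads scaled by gene length and by library total) in at least 3 libraries. A positive value means that the response was higher in mdx:Utrn+/- than in mdx, and 0 means equal responses. Each group held 3 libraries: mdx:Utrn+/- mice given PB1046, mdx:Utrn+/- mice given saline, mdx mice given PB1046, and mdx mice given saline. All 4 groups lack dystrophin, and the mdx:Utrn+/- groups also carry a single working copy of Utrn in every cell. Mice received PB1046 or saline on alternate days between weeks 4 and 12 of age and were killed for their hearts at week 14. Of the doses in the protocol, 0.75 and 1.5 mg/kg, the titles give only that PB1046 was at the high one, which is read here as 1.5 mg/kg. Cardiomyocytes were isolated and frozen before extraction, RNA had an integrity number of at least 8, and poly-A RNA was sequenced. The labels do not state that each library was a mouse of its own, so p-values measure the spread between these libraries, which may be partly technical. No dystrophin-sufficient hearts were analysed here.

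PB1046 is a long-acting analog of vasoactive intestinal peptide (VIP). VIP receptors couple to the stimulatory G protein, which activates adenylyl cyclase; cyclic AMP then releases the catalytic subunits of protein kinase A, and these phosphorylate CREB, a factor that binds the cyclic AMP response element in promoters. NF-kB dimers are held in the cytoplasm by inhibitor proteins until the IKK kinases mark those for breakdown, and NF-kB activity is known to be chronically raised in dystrophic muscle. Utrophin is the close relative of dystrophin that partly takes its place at the membrane of dystrophic muscle, so losing a copy worsens the disease in mdx mice. Both pathways, cAMP-PKA-CREB and NF-kB, are named as the aim of the sequencing.

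Libraries held 7234100 to 25458194 reads, as recovered from the TPM values. Within mdx, the PB1046 libraries were shallower (11468009 to 14182350 reads) than the saline libraries (18162940 to 25458194 reads). Within mdx:Utrn+/- the depths of PB1046 (11050653 to 22546257 reads) and saline (7234100 to 25013287 reads) overlapped. Rn45s, the ribosomal RNA precursor that poly-A selection should remove, also differed: its log2 level in PB1046 minus saline was -0.78 in mdx:Utrn+/- and 1.93 in mdx, an interaction of -2.71. The mdx:Utrn+/- saline replicate 2 was both the shallowest and the highest in Rn45s, at 13.6% of its reads. Cardiomyocyte genes such as Tnni3 were abundant in every library (9023 to 21619 scaled TPM), and markers of endothelium, fibroblasts and macrophages were present too. In bulk samples, fewer cells of a type and less RNA per cell cannot be told apart. Values below are scaled TPM, that is TPM divided by a factor for each library, and differences are on the scale log2(scaled TPM + 1), which understates changes of low genes.

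No gene passed the test of the interaction (limma across all genes, Benjamini-Hochberg adjusted p under 0.05; 0% of 12798 genes, smallest adjusted p = 0.999). The response to PB1046 also had no passing gene within mdx:Utrn+/- (0%, smallest adjusted p = 0.998) or within mdx (0%, smallest adjusted p = 0.355). An unadjusted p under 0.05 was found for 288 genes in the interaction (2.25%), 138 above 0 (1.08%) and 150 below 0 (1.17%). The same count was 251 genes (1.96%) for PB1046 in mdx:Utrn+/- and 394 genes (3.08%) for PB1046 in mdx. The shares of 2.25%, 1.96% and 3.08% were all below the fraction of 0.05 that this threshold gives on average when no gene differs. limma-voom on the recovered reads also gave 0 passing genes for the interaction, with 275 at an unadjusted p under 0.05. The median half-width of the 95% interval, which is not adjusted for the number of genes, was 0.80 on the log2 scale (quartiles 0.65 and 1.02). For most genes a difference of responses much smaller than that was not detectable with 3 libraries a group. Differences well above it did not pass the adjusted test either, such as that of Grip2 at 2.18 (limma adjusted p = 0.999).

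The responses of the 2 genotypes had almost no relation across genes. Pearson's r between them was -0.04 and Spearman's rho -0.01 over 12798 genes, which are not independent replicates, and no library was shared between the 2 responses. The sign was the same for 50.9% of genes. The SD over genes was 0.30 for the log2 response in mdx:Utrn+/- and 0.32 in mdx, and 0.44 for their difference. The median interaction was -0.01, with 48.2% of genes above 0 and 51.8% below. These shares are the background for all later counts of list members above or below 0. In the deposited TPM, without scaling factors, the median response was 0.15 in mdx:Utrn+/- and 0.14 in mdx, while the median interaction remained near 0.00. The r depended on the libraries: it was 0.29 without the 3 libraries of the lowest library numbers, and between -0.26 and 0.15 when 1 library at a time was left out. Those 3 libraries are replicate 1 of mdx PB1046, of mdx:Utrn+/- PB1046 and of mdx:Utrn+/- saline. None is from mdx saline, so the lowest numbers were not balanced over the groups.

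**Figure D1:**
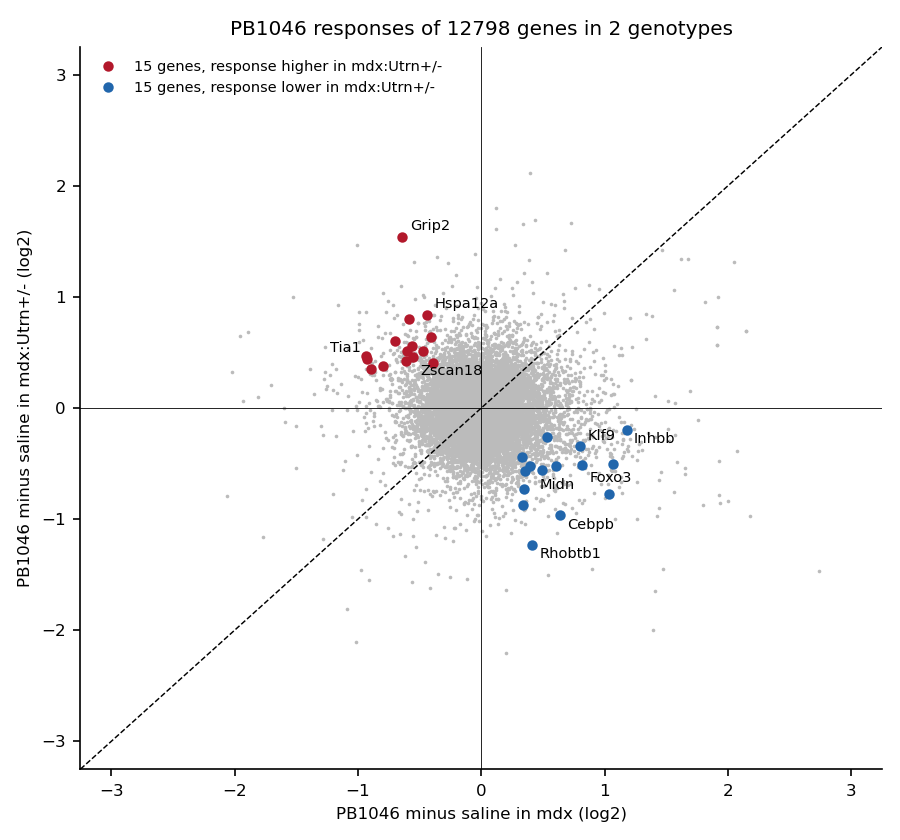
Each grey point is 1 of 12798 genes, with its log2 difference of PB1046 and saline in mdx on the horizontal axis and in mdx:Utrn+/- on the vertical axis; the dashed line marks equal responses. Red and blue points are the 15 genes per direction with the smallest unadjusted interaction p, and none of them passed after adjustment. The cloud is round (r = -0.04), and the coloured points lie in the quadrants of opposite sign. Picking genes by the difference of the responses favours those quadrants, so their position is not a separate result.

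Genes with the smallest p above 0 were on average higher in PB1046 than in saline libraries of mdx:Utrn+/-, and lower in those of mdx. Picking genes by the difference between the responses favours such opposite signs. It also favours groups that do not overlap, so being apart is not a separate result for these genes. Hspa12a, a distant member of the HSP70 chaperone family, had 10.3, 10.6 and 8.90 scaled TPM in mdx:Utrn+/- PB1046 against 4.70, 5.90 and 4.74 in mdx:Utrn+/- saline. Hspa12a in mdx had 8.43, 9.39 and 5.87 with PB1046 against 8.23, 11.2 and 13.9 with saline. The groups did not overlap in mdx:Utrn+/- and overlapped in mdx, and the interaction was 1.28 (95% interval 0.61 to 1.95, limma unadjusted p = 0.0013, adjusted p = 0.999).

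Grip2, a PDZ scaffold protein first known from glutamate receptor trafficking, had the largest interaction among the 15 named genes above 0, at 2.18 (0.94 to 3.42, unadjusted p = 0.0024). Its levels were 28.3, 24.2 and 12.4 in mdx:Utrn+/- PB1046 against 3.35, 8.44 and 8.74 in mdx:Utrn+/- saline. Levels of Grip2 in mdx were 11.5, 14.6 and 5.79 with PB1046 against 12.6, 16.8 and 19.7 with saline. The mdx:Utrn+/- groups did not overlap and the mdx groups did.

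Zscan18, a zinc finger gene of the SCAN family, was scarce (9 to 91 reads per library) but separated the groups in both genotypes. It had 1.66, 1.66 and 1.85 scaled TPM in mdx:Utrn+/- PB1046 against 1.26, 0.718 and 1.00 in mdx:Utrn+/- saline. In mdx it had 0.672, 0.896 and 0.763 with PB1046 against 1.66, 1.197 and 2.00 with saline. PB1046 libraries were all higher in mdx:Utrn+/- and all lower in mdx, with an interaction of 1.01 (0.42 to 1.59, unadjusted p = 0.0028). It is also the only one of 52 named genes with a RefSeq promoter in the table used here in which the full cyclic AMP response element TGACGTCA, on either strand, was found. That promoter (GRCm38.p6, chr7:12803589-12803888, minus strand, 250 bases before the start site and 50 after) is shown with the element in capitals, 48 bases before the start site; this start site lies outside the interval the deposited table gives for the gene (chr7:12768092-12775658).
Zscan18: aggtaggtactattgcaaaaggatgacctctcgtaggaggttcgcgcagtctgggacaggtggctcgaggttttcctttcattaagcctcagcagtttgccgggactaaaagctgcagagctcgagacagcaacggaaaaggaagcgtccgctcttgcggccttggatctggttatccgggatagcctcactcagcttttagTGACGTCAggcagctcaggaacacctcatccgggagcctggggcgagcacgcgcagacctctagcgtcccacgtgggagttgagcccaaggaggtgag

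Eif2s3y, the Y-linked gene for a subunit of the initiation factor eIF2, had the same pattern at a higher level. It had 72.3, 62.7 and 59.8 scaled TPM in mdx:Utrn+/- PB1046 against 32.5, 47.0 and 59.6 in mdx:Utrn+/- saline. In mdx it had 61.5, 60.0 and 44.6 with PB1046 against 79.3, 79.5 and 93.7 with saline. The groups were apart in both genotypes, narrowly so in mdx:Utrn+/-, and the interaction was 1.12 (0.42 to 1.82, unadjusted p = 0.0047).

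Tia1 (an RNA-binding protein of stress granules), Irx4 (a homeobox factor of ventricular myocytes), Exd2 (an exonuclease), Six5 (a homeobox factor) and Rap1gap (an inhibitor of the small GTPase Rap1) had interactions of 1.37, 1.17, 1.38, 1.04 and 1.41, with unadjusted p between 0.0052 and 0.0087. Their PB1046 libraries lay below all saline libraries in mdx and overlapped them in mdx:Utrn+/-. Irx4 had 32.8, 24.8 and 29.0 scaled TPM in mdx:Utrn+/- PB1046 against 17.7, 21.5 and 27.4 in mdx:Utrn+/- saline. In mdx, Irx4 had 20.4, 16.1 and 12.7 with PB1046 against 30.7, 20.5 and 37.4 with saline, which are only just apart. Sema6d, a transmembrane semaphorin, was apart in both genotypes, with an interaction of 1.04 (0.30 to 1.78, unadjusted p = 0.0096). Ccdc146, a coiled-coil protein, was apart in both genotypes too (1.12). Zfp40 (1.31), Lca5 (0.99), Taf1b (0.80) and C2cd4b (1.24) were apart only in mdx.

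Below 0, the gene with the smallest p was Midn, which encodes midnolin, a protein that takes nuclear proteins to the proteasome without ubiquitin. Midn had 26.1, 23.0 and 25.8 scaled TPM in mdx:Utrn+/- PB1046 against 37.5, 31.8 and 42.8 in mdx:Utrn+/- saline. Midn in mdx had 35.7, 32.5 and 37.0 with PB1046 against 29.3, 21.7 and 23.3 with saline. The groups were apart in opposite directions in the 2 genotypes, and the interaction was -1.05 (-1.59 to -0.51, unadjusted p = 0.0011, adjusted p = 0.999).

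Foxo3, a transcription factor that drives atrophy and autophagy genes, was likewise apart in both genotypes. It had 4.60, 4.29 and 2.51 scaled TPM in mdx:Utrn+/- PB1046 against 6.02, 5.91 and 5.29 in mdx:Utrn+/- saline. In mdx it had 7.87, 7.69 and 4.98 with PB1046 against 2.31, 4.22 and 3.86 with saline. Its interaction was -1.34 (-2.10 to -0.57, unadjusted p = 0.0025). No other tested gene of the atrophy and autophagy list had an unadjusted p under 0.05, and the list's median interaction was -0.23 with 16 of 21 tested members below 0 (51.8% of all genes). Without mdx:Utrn+/- PB1046 replicate 2 that median was 0.022.

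Spsb1, an adaptor that takes inducible nitric oxide synthase to a ubiquitin ligase, had 12.3, 10.3 and 12.3 scaled TPM in mdx:Utrn+/- PB1046 against 14.9, 16.8 and 20.2 in mdx:Utrn+/- saline. Levels of Spsb1 in mdx were 20.8, 18.4 and 15.3 with PB1046 against 12.7, 14.8 and 13.2 with saline. It was apart in both genotypes, with an interaction of -0.92 (-1.46 to -0.38, unadjusted p = 0.0031). Bcl9l, a coactivator of beta-catenin, was apart in both as well, at -0.77 (-1.28 to -0.27, unadjusted p = 0.0059).

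Cebpb, a factor that acts in both inflammatory and cyclic AMP responses, had 34.3, 14.6 and 22.3 scaled TPM in mdx:Utrn+/- PB1046 against 62.1, 29.3 and 49.0 in mdx:Utrn+/- saline. In mdx, Cebpb had 31.1, 27.7 and 36.3 with PB1046 against 20.6, 25.5 and 14.8 with saline. The groups overlapped in mdx:Utrn+/- through a single library of each group and were apart in mdx, and the interaction was -1.61 (-2.63 to -0.58, unadjusted p = 0.0051). Arid5a, an RNA-binding protein that stabilises inflammatory messages, had an interaction of -1.07 (unadjusted p = 0.0057) and was apart in mdx:Utrn+/- but not in mdx.

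Klf9, a transcription factor gene that glucocorticoids induce, had 13.9, 16.5 and 12.7 scaled TPM in mdx:Utrn+/- PB1046 against 16.1, 23.3 and 16.3 in mdx:Utrn+/- saline. Klf9 in mdx had 22.1, 35.6 and 28.1 with PB1046 against 11.7, 15.4 and 21.3 with saline. The groups were apart in mdx and overlapped in mdx:Utrn+/-, with an interaction of -1.14 (-1.90 to -0.38, unadjusted p = 0.0069). Its promoter (RefSeq, GRCm38.p6, chr19:23140976-23141275, plus strand) holds the shorter element TGACGT, in capitals, 46 bases before the start site, and is shown because its interaction has the opposite sign to that of Zscan18.
Klf9: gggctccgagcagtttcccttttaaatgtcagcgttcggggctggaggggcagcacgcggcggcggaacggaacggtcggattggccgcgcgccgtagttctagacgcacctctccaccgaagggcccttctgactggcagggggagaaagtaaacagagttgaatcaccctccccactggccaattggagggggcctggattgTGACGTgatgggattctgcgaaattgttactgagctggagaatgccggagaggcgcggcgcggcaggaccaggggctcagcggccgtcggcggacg

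Inhbb, which encodes a subunit of activin B, had 2.08, 1.18 and 0.736 scaled TPM in mdx:Utrn+/- PB1046 against 1.42, 3.13 and 0.753 in mdx:Utrn+/- saline. Levels of Inhbb in mdx were 2.51, 2.99 and 3.00 with PB1046 against 0.653, 0.847 and 0.582 with saline. The groups were far apart in mdx and intermingled in mdx:Utrn+/-, and the interaction was -1.38 (-2.30 to -0.45, unadjusted p = 0.0071). Rhobtb1, an adaptor of Cullin 3 ubiquitin ligases, showed the reverse layout, apart in mdx:Utrn+/- (57.5, 23.9 and 38.6 with PB1046 against 72.2, 62.3 and 160.1 with saline) and overlapping in mdx. Its interaction was -1.64 (unadjusted p = 0.0099). Usp17la (-1.81), Samd4b (-0.80) and Calhm2 (-1.13) were apart only in mdx, and Wdfy2 (-0.92) and Rnf144b (-1.22) only in mdx:Utrn+/-.

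**Figure D2:**
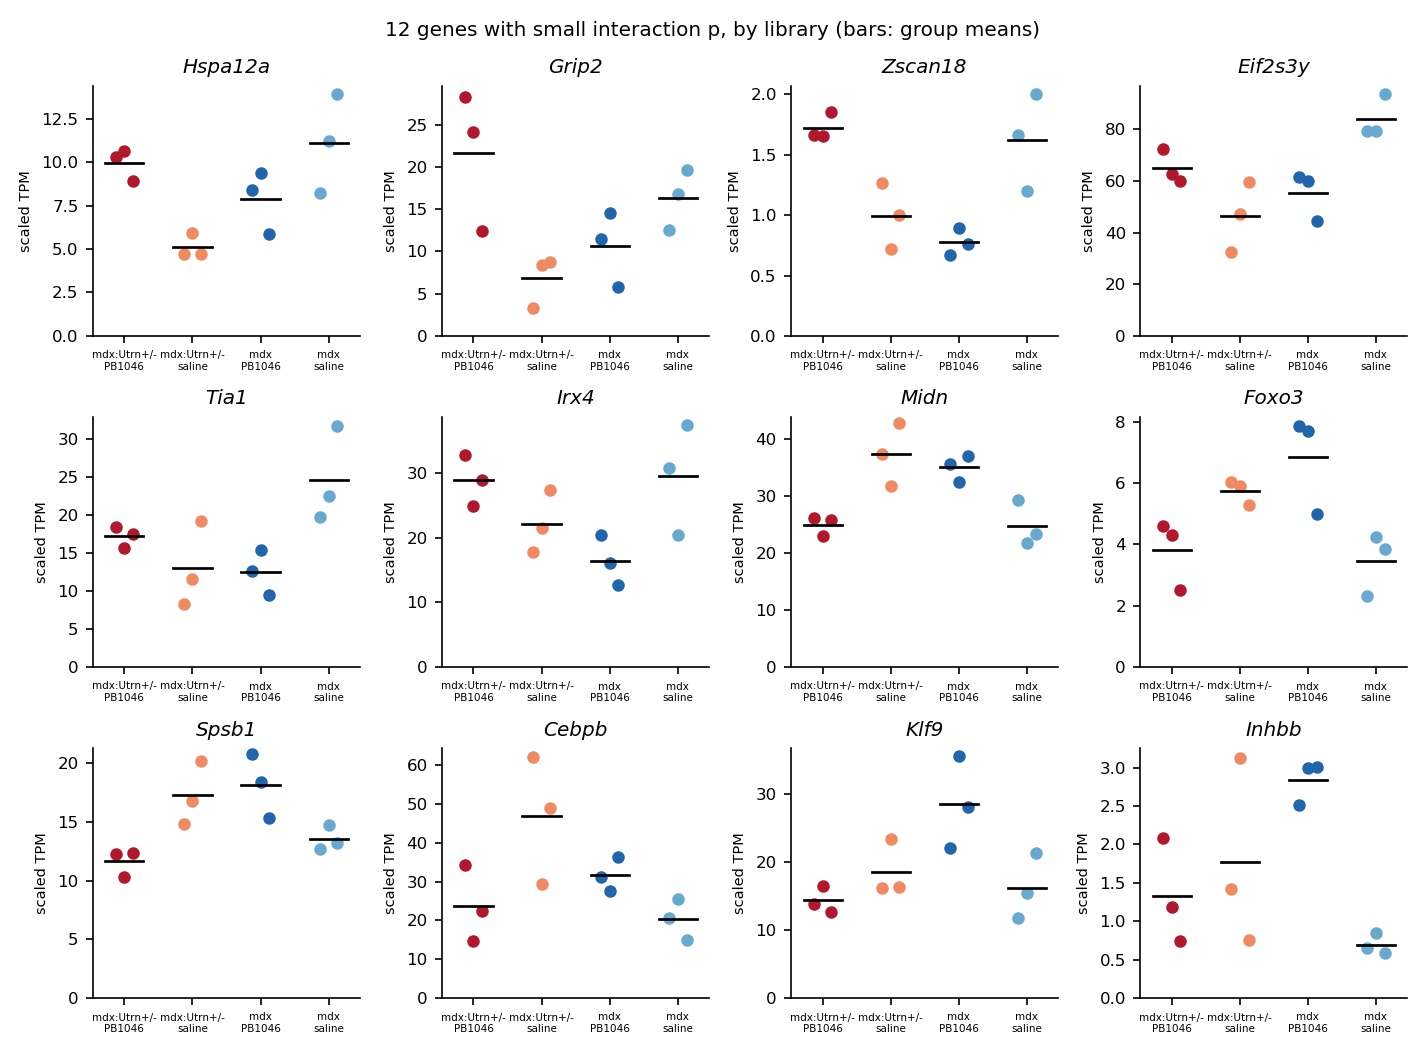
Points are single libraries and bars are group means, in scaled TPM on a linear axis from 0, for 6 genes above 0 (Hspa12a to Irx4) and 6 below 0 (Midn to Inhbb) in the interaction. In Zscan18, Eif2s3y, Midn, Foxo3 and Spsb1 the PB1046 and saline libraries do not overlap in either genotype, with opposite order.

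Genes whose libraries were apart in both genotypes in opposite directions numbered 23 of 12798 (0.18%): 8 with PB1046 above saline in mdx:Utrn+/- and below in mdx (0.0625%) and 15 the other way (0.117%). Apart in both in the same direction were 29 genes (0.227%). Within mdx:Utrn+/- alone 5.64% of genes were apart, and within mdx 8.31%. With 3 libraries a group, some genes are apart even when nothing differs, and these shares were not tested against that level. The gene with the smallest interaction p of all, Mir186, is a microRNA gene, which the naming rule leaves out (limma unadjusted p = 0.00058, adjusted p = 0.999).

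Utrn, the gene whose copy number differs, averaged 6.75 ± 1.56 scaled TPM in mdx:Utrn+/- PB1046 and 11.3 ± 4.13 in mdx PB1046, and 5.76 ± 1.68 in mdx:Utrn+/- saline and 9.53 ± 1.44 in mdx saline (SD, n = 3 each). The saline libraries of the 2 genotypes did not overlap, with mdx:Utrn+/- below mdx, while their PB1046 libraries overlapped. It had 5.30, 8.39 and 6.54 scaled TPM in mdx:Utrn+/- PB1046 against 3.96, 7.29 and 6.04 in mdx:Utrn+/- saline. In mdx, Utrn had 6.58, 13.4 and 14.0 with PB1046 against 8.93, 8.49 and 11.2 with saline. PB1046 and saline overlapped in both genotypes, and the interaction was 0.04 (-0.85 to 0.92). Dmd, whose mdx allele is still transcribed, had an interaction of 0.10 (-0.84 to 1.05). Dysf, the membrane repair protein dysferlin, had 31.3, 35.8 and 26.7 scaled TPM in mdx:Utrn+/- PB1046 against 16.1, 23.4 and 24.8 in mdx:Utrn+/- saline, which were apart, while in mdx the groups overlapped; its interaction was 0.56 (-0.10 to 1.23, unadjusted p = 0.091). In the dystrophin-glycoprotein complex list, 22 of 24 members were tested, 15 were below 0, the median was -0.12 (0.097 without mdx:Utrn+/- PB1046 replicate 2), and no member had an unadjusted p under 0.05.

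The VIP receptors themselves could not be compared. Vipr1 had 3 to 38 reads per library and Vipr2 2 to 15, both under the filter. Adcyap1r1, the receptor that prefers the related peptide PACAP, had 6.98, 3.199 and 1.79 scaled TPM in mdx:Utrn+/- PB1046 against 7.14, 9.22 and 0.991 in mdx:Utrn+/- saline. Adcyap1r1 in mdx had 8.00, 5.35 and 4.29 with PB1046 against 1.07, 2.85 and 2.49 with saline. The mdx groups were apart and the mdx:Utrn+/- groups spanned each other, and the interaction was -1.42 (-3.15 to 0.30, unadjusted p = 0.098). With log2 Rn45s as a term it was -0.34. Calcrl, the receptor of adrenomedullin and related peptides, had an interaction of 0.96 (unadjusted p = 0.20).

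Downstream of the receptors, the cAMP-PKA list (adenylyl cyclases, protein kinase A subunits, phosphodiesterases and anchors) had a median interaction of -0.06, with 15 of 32 tested genes above 0, 17 below 0 and none at an unadjusted p under 0.05. Pde3a, a phosphodiesterase that breaks down cyclic AMP, had 5.40, 3.16 and 2.87 scaled TPM in mdx:Utrn+/- PB1046 against 2.98, 5.64 and 2.08 in mdx:Utrn+/- saline. Levels of Pde3a in mdx were 6.27, 4.82 and 2.93 with PB1046 against 2.60, 1.34 and 1.81 with saline. Its groups were apart only in mdx, with an interaction of -0.82 (-1.84 to 0.19, unadjusted p = 0.10). Among the 13 CREB family members and coactivators the median was -0.19, with 9 below 0; it was 0.0026 without mdx saline replicate 1 and -0.016 with a filter of 5 TPM. Creb3l2, a CREB relative released from the endoplasmic reticulum, was the one with an unadjusted p under 0.05 (interaction -0.90, -1.57 to -0.23, unadjusted p = 0.012), and Creb1 itself was at 0.35 (-0.28 to 0.99).

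Among the CREB targets, the immediate early genes Egr1, Junb and Fos had interactions above 0. Egr1, an immediate early zinc finger factor, had 119.0, 82.4 and 25.7 scaled TPM in mdx:Utrn+/- PB1046 against 30.2, 35.7 and 37.9 in mdx:Utrn+/- saline. In mdx, Egr1 had 26.4, 47.0 and 76.5 with PB1046 against 86.4, 73.5 and 120.9 with saline. Groups overlapped in both genotypes, since mdx:Utrn+/- PB1046 replicate 3 lay below all its saline libraries, and the interaction was 1.85 (0.32 to 3.38, unadjusted p = 0.022). It was 0.99 without the 3 libraries of the lowest library numbers.

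Junb, a subunit of the AP-1 factor, had an interaction of 1.26 (0.14 to 2.38, unadjusted p = 0.030). Fos, its partner, had 175.1, 87.6 and 48.5 scaled TPM in mdx:Utrn+/- PB1046 against 44.8, 77.0 and 117.5 in mdx:Utrn+/- saline. Fos in mdx had 89.2, 71.9 and 65.8 with PB1046 against 209.3, 105.0 and 164.3 with saline. The groups spanned each other in mdx:Utrn+/- and were apart in mdx, and the interaction was 1.31 (-0.07 to 2.70, unadjusted p = 0.062). Over the 25 tested CREB targets and immediate early genes of 26, the median interaction was 0.12, with 15 above 0 (48.2% of all genes). That median was -0.19 without the 3 libraries of the lowest library numbers, and with 1 library left out it lay between -0.15, without mdx:Utrn+/- saline replicate 1, and 0.44, without mdx PB1046 replicate 3. Such genes are also known to be induced while hearts are taken apart into cells. The list of RNA quality and dissociation stress genes, which shares Egr1, Junb and Fos, had a median of 0.47 with 11 of 17 above 0 (0.16 without mdx:Utrn+/- saline replicate 1 and 0.94 without mdx:Utrn+/- saline replicate 3); the part of cell isolation in the result was not tested. The Fos promoter (RefSeq, GRCm38.p6, chr12:85473640-85473939, plus strand) is shown because it holds the well-known element TGACGT, in capitals, 66 bases before the start site.
Fos: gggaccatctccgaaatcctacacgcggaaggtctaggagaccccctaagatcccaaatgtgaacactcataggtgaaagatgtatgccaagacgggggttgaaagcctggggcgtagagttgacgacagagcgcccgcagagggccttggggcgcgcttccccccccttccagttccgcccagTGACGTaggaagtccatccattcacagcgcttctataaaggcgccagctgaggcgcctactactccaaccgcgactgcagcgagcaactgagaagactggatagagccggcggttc

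The motif TGACGT, searched on both strands and counted also inside TGACGTCA, was in 11 of 79 promoters of the 52 named genes (13.9%), against 2468 of 32851 promoters of the same length (7.51%). TGACGTCA was in 1 of the 79 (1.27%), against 588 of 32851 (1.79%). The genes with TGACGT had interactions of either sign, with Zscan18, Eif2s3y, Irx4, Rap1gap and Fos above 0 and Klf9, Rhobtb1, Creb3l2, Timp1 and Pdgfra below 0. An NF-kB motif, GGG and TTTCC with any 2 bases between them, was in 3 of the 79 promoters (3.8%), those of Bcl2l1 and Rap1gap, against 535 of 32851 (1.63%). The named genes were picked in part from the CREB and NF-kB lists, and some have several promoters. Their shares therefore cannot be read as an enrichment, which was not tested.

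NF-kB target genes were mostly below 0: the median interaction over 27 tested members of 30 was -0.72, with 23 below 0 (51.8% of all genes) and 4 above 0. The median log2 response was -0.16 in mdx:Utrn+/- and 0.48 in mdx, and 16 of the 27 were lower with PB1046 in mdx:Utrn+/- and higher in mdx (25.1% of all genes). None passed after adjustment. An unadjusted p under 0.05 was found for 5 members below 0 (Mmp3, Bcl2l1, Ccl7, Sele and Ccl2), against 1.17% of all genes, and for 1 above 0 (Gadd45b), against 1.08%; Ccl2 and Gadd45b were named after their values were seen.

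Mmp3, a matrix-degrading protease, had 5.12, 3.17 and 1.91 scaled TPM in mdx:Utrn+/- PB1046 against 5.99, 6.27 and 1.42 in mdx:Utrn+/- saline. Levels of Mmp3 in mdx were 8.50, 6.07 and 6.57 with PB1046 against 0.809, 2.37 and 2.16 with saline. The mdx groups were well apart and the mdx:Utrn+/- groups overlapped, with an interaction of -1.82 (-3.12 to -0.51, unadjusted p = 0.010). Ccl7, a chemokine for monocytes, had 19.5, 11.9 and 10.6 scaled TPM in mdx:Utrn+/- PB1046 against 18.7, 32.6 and 5.92 in mdx:Utrn+/- saline. In mdx, Ccl7 had 20.5, 27.8 and 24.2 with PB1046 against 5.47, 9.23 and 9.09 with saline. Again the libraries were apart in mdx and not in mdx:Utrn+/-, and the interaction was -1.71 (-3.12 to -0.29, unadjusted p = 0.022). Ccl2, the related monocyte chemokine, was at -2.46 (unadjusted p = 0.040).

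Bcl2l1, which encodes the survival protein BCL-XL, had 19.5, 15.8 and 13.9 scaled TPM in mdx:Utrn+/- PB1046 against 29.0, 13.2 and 28.9 in mdx:Utrn+/- saline. Bcl2l1 in mdx had 18.1, 38.4 and 37.5 with PB1046 against 9.735, 19.9 and 13.2 with saline. Groups overlapped in both genotypes through a single library in each, and the interaction was -1.50 (-2.62 to -0.38, unadjusted p = 0.013). Among the 52 named genes with a promoter, Bcl2l1 was the only listed NF-kB target in which the NF-kB motif given above was found. Other members of the list were not looked up. The Bcl2l1 promoter (RefSeq, GRCm38.p6, chr2:152830668-152830967, minus strand) is shown with the motif as its reverse complement in capitals, 218 bases before the start site.
Bcl2l1: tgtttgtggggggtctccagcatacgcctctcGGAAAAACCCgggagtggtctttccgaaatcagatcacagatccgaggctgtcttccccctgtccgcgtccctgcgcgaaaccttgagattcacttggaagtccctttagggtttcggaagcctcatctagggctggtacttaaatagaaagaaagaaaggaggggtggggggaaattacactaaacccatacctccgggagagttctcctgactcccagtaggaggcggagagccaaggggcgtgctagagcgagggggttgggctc

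Sele, the endothelial adhesion molecule E-selectin, was at -1.13 (-2.10 to -0.16, unadjusted p = 0.027). Gadd45b, a stress-response gene, had the reverse sign at 1.20 (unadjusted p = 0.042). The subunits and feedback regulators of NF-kB had a median of -0.11, with 17 of 27 below 0, which was 0.091 without mdx PB1046 replicate 2 and 0.049 without mdx PB1046 replicate 3. Of these only Myd88, the adaptor of Toll-like and interleukin-1 receptors, had an unadjusted p under 0.05. It had 16.4, 15.96 and 10.5 scaled TPM in mdx:Utrn+/- PB1046 against 17.9, 17.6 and 12.6 in mdx:Utrn+/- saline. Levels of Myd88 in mdx were 16.8, 21.6 and 16.97 with PB1046 against 11.05, 12.6 and 12.5 with saline, apart, and the interaction was -0.73 (-1.38 to -0.09, unadjusted p = 0.029). Nfkb1 and Rela, the subunits of the main dimer, were at -0.04 (unadjusted p = 0.89) and -0.18 (unadjusted p = 0.64), and Nfkbia, the inhibitor that NF-kB itself induces, at -0.63 (unadjusted p = 0.31); these 3 were named for their role after their values were seen.

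The score of the NF-kB target list, the mean of its members' centred log2 values, was 0.08, 0.03 and -0.50 in mdx:Utrn+/- PB1046 against 0.34, 0.25 and -0.56 in mdx:Utrn+/- saline. It was 0.20, 0.43 and 0.44 in mdx PB1046 against -0.39, 0.00 and -0.32 in mdx saline. The score was thus apart in mdx and overlapped in mdx:Utrn+/-, where replicate 3 of either group was low. Among all 38 list scores, 3 were apart in mdx: the NF-kB target, glucocorticoid-responsive, and erythroid and platelet lists. In mdx:Utrn+/- 0 of the 38 were apart. Rn45s and depth moved with the NF-kB target score. That list's median interaction was -0.40 with log2 Rn45s as a term and -0.35 with log2 depth as a term, against -0.72 without. It lay between -1.06, without mdx:Utrn+/- saline replicate 3, and -0.45, without mdx:Utrn+/- saline replicate 1, when 1 library was left out.

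**Figure D3:**
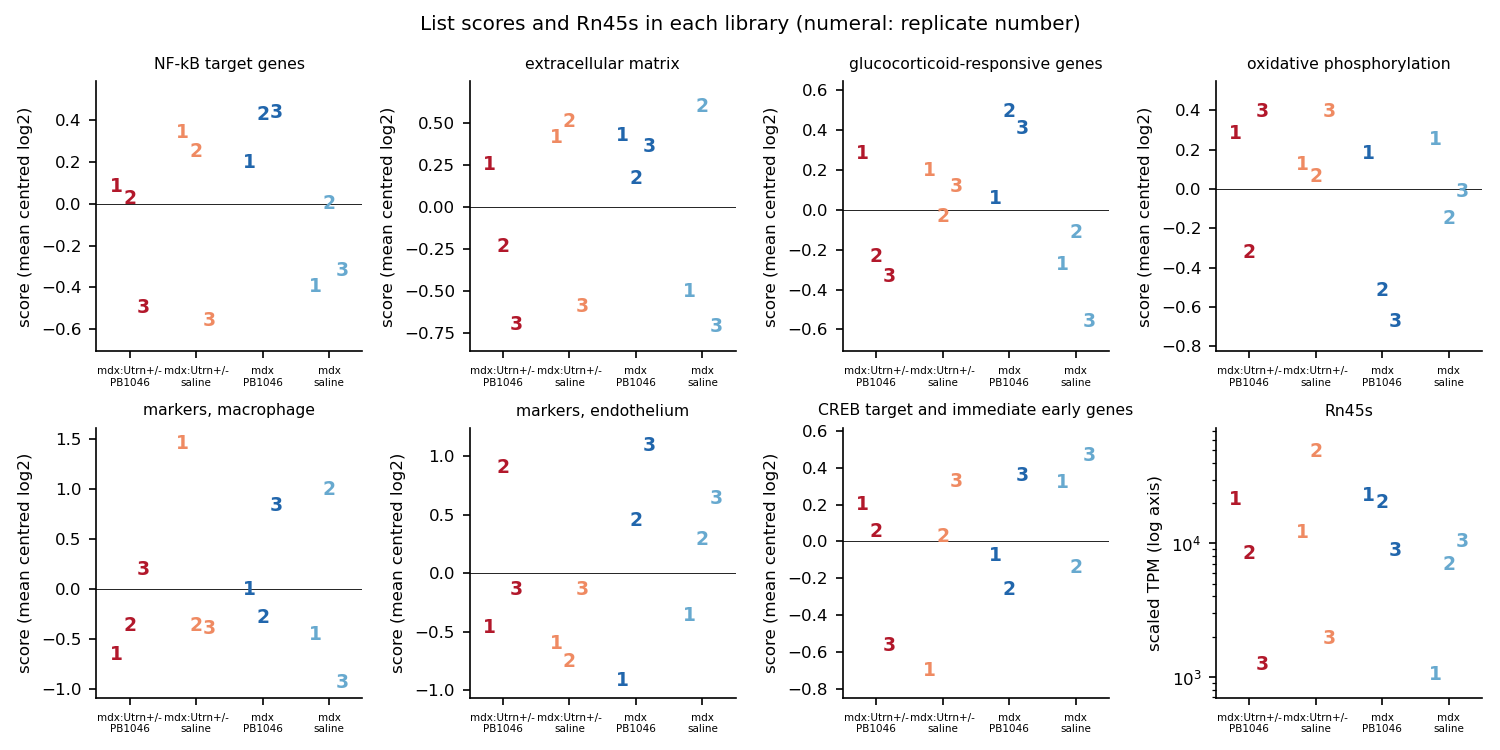
Numerals stand for replicates 1 to 3 of each group; the vertical axis is the list score (mean of the members' log2 values, each centred on its mean over 12 libraries), and for Rn45s the scaled TPM on a log axis. NF-kB target and glucocorticoid scores are higher in every mdx PB1046 library than in every mdx saline library. Every other PB1046 and saline pair shown, including all pairs in mdx:Utrn+/-, overlaps for the 7 lists. Among all 38 list scores, 3 were apart in mdx and 0 in mdx:Utrn+/-.

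Activin and TGF-beta genes held several of the larger values below 0. Inhba, a subunit of activin A, had 4.99, 2.77 and 0.3996 scaled TPM in mdx:Utrn+/- PB1046 against 6.43, 9.27 and 1.00 in mdx:Utrn+/- saline. In mdx, Inhba had 7.17, 5.10 and 3.68 with PB1046 against 0.346, 1.66 and 1.51 with saline. The mdx groups were apart and the mdx:Utrn+/- groups overlapped, and the interaction was -2.32 (-4.22 to -0.42, unadjusted p = 0.021). Ltbp2, a microfibril-associated protein of the latent TGF-beta binding family, was at -1.81 (-3.57 to -0.05, unadjusted p = 0.045). Acvr1, a type I receptor of this family, had the opposite sign at 0.63 (0.05 to 1.20, unadjusted p = 0.036), with 8.28, 6.57 and 5.84 scaled TPM in mdx:Utrn+/- PB1046 against 4.53, 4.82 and 5.01 in mdx:Utrn+/- saline, which were apart. The list as a whole had a median of -0.21 with 19 of 28 below 0, which was -0.0019 without mdx PB1046 replicate 3 and -0.37 without mdx PB1046 replicate 1. For Inhba the interaction was -1.07 with log2 Rn45s as a term.

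Extracellular matrix genes had a median interaction of -0.83, with 31 of 36 below 0 (51.8% of all genes) and no member at an unadjusted p under 0.05. The median log2 response was -0.31 in mdx:Utrn+/- and 0.54 in mdx, and 28 of the 36 were lower with PB1046 in mdx:Utrn+/- and higher in mdx (25.1% of all genes). Thbs1, the matricellular protein thrombospondin 1, had 51.0, 26.8 and 4.54 scaled TPM in mdx:Utrn+/- PB1046 against 40.3, 67.1 and 6.70 in mdx:Utrn+/- saline. Thbs1 in mdx had 62.9, 46.1 and 31.8 with PB1046 against 5.75, 15.7 and 14.8 with saline. It was apart in mdx and spread widely within each mdx:Utrn+/- group, where replicate 3 was low, and the interaction was -2.41 (-5.03 to 0.21, unadjusted p = 0.068). Fn1 (fibronectin) was at -1.72 (unadjusted p = 0.057), Timp1 (a protease inhibitor) at -1.83 (unadjusted p = 0.065) and Col1a1 (a collagen I chain) at -1.92 (unadjusted p = 0.082). Depth and Rn45s moved with these genes: the list's median was -0.43 with log2 Rn45s as a term and -0.33 with log2 depth as a term, and Thbs1 was at -0.64 with log2 Rn45s as a term. Without mdx saline replicate 2 the median was -1.27.

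Marker lists of fibroblasts, macrophages and endothelium also had medians away from 0. Their PB1046 and saline scores overlapped in both genotypes. The 15 fibroblast markers had a median of -0.63 with 14 below 0 (51.8% of all genes), and their summed level was 439.0 to 667.7 scaled TPM in mdx:Utrn+/- PB1046 against 382.8 to 841.3 in mdx:Utrn+/- saline. In mdx that sum was 572.0 to 1466 with PB1046 against 383.0 to 1162 with saline. Pdgfra, a receptor that defines fibroblasts, was at -1.37 (unadjusted p = 0.089). Their median was -0.18 without mdx PB1046 replicate 3 and -1.06 without mdx saline replicate 2. The part of fibroblast RNA in the matrix values was not tested.

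Macrophage markers had a median of -0.88, with 21 of 22 tested members of 23 below 0 (51.8% of all genes), and 20 of them were lower with PB1046 in mdx:Utrn+/- and higher in mdx (25.1% of all genes). Their summed level was 269.2 to 592.2 scaled TPM in mdx:Utrn+/- PB1046 against 271.9 to 1507 in mdx:Utrn+/- saline, and 324.6 to 896.3 in mdx PB1046 against 166.3 to 924.3 in mdx saline. The high ends came from mdx:Utrn+/- saline replicate 1 and mdx saline replicate 2, and the list's median was -0.21 without mdx:Utrn+/- saline replicate 1 and -1.45 without mdx saline replicate 2. Without the 3 libraries of the lowest library numbers it was -0.09. Cd163, a scavenger receptor of resident macrophages, was the one with an unadjusted p under 0.05: it had 1.10, 0.833 and 1.21 scaled TPM in mdx:Utrn+/- PB1046 against 3.87, 1.55 and 1.91 in mdx:Utrn+/- saline, which were apart. Levels of Cd163 in mdx were 3.22, 1.48 and 5.05 with PB1046 against 1.00, 2.61 and 1.03 with saline, with an interaction of -1.40 (-2.50 to -0.30, unadjusted p = 0.017). Ptprc, the pan-leukocyte marker CD45, was at -0.90 (unadjusted p = 0.13), and no marker of the list was at 0 in all libraries.

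All 17 endothelial markers were above 0 (48.2% of all genes), with a median of 0.44, a median log2 response of 0.56 in mdx:Utrn+/- and one of -0.01 in mdx. Kdr, the main VEGF receptor, had 15.6, 84.5 and 45.7 scaled TPM in mdx:Utrn+/- PB1046 against 18.1, 16.03 and 19.96 in mdx:Utrn+/- saline. In mdx, Kdr had 16.7, 41.4 and 47.4 with PB1046 against 27.9, 35.1 and 55.8 with saline. Both genotypes overlapped, and the interaction was 1.33 (-0.30 to 2.96, unadjusted p = 0.10). The list's summed level was 1861 to 4346 scaled TPM in mdx:Utrn+/- PB1046 against 1518 to 1870.3 in mdx:Utrn+/- saline, and 1089 to 5744 in mdx PB1046 against 1517 to 3857 in mdx saline. The high value in mdx:Utrn+/- PB1046 was replicate 2, without which the list's median was 0.13, and without mdx PB1046 replicate 1 it was -0.04.

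**Figure D4:**
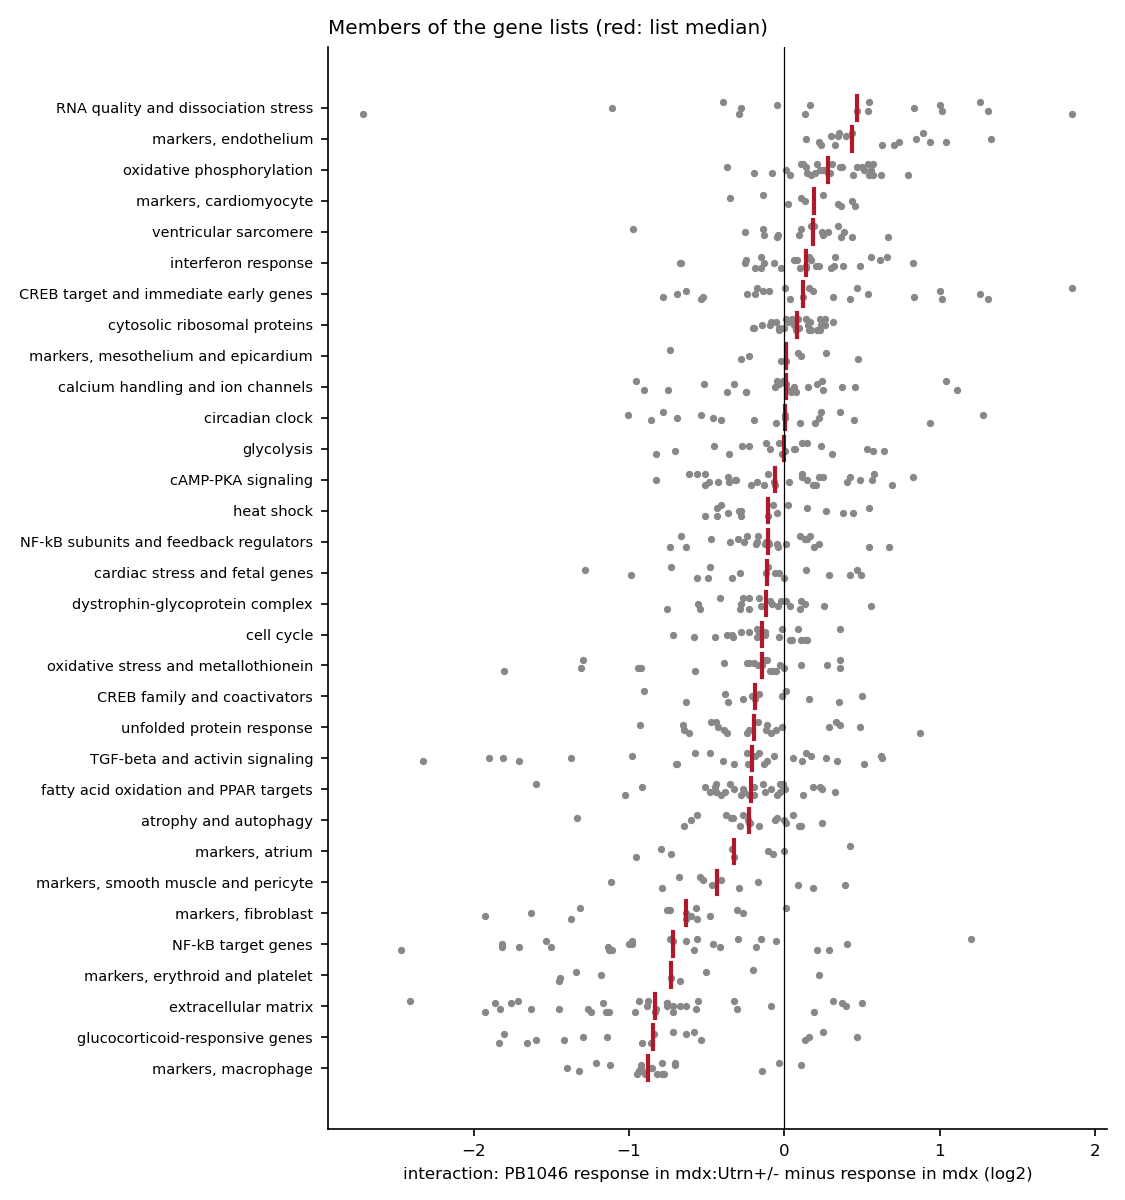
Each grey point is the interaction of 1 gene, on the log2 scale, and each red bar the median of its list, for the lists with at least 9 tested members. Macrophage, glucocorticoid, matrix, erythroid, NF-kB target and fibroblast lists have medians between -0.88 and -0.63, and the endothelial list has its median at 0.44.

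Glucocorticoid-responsive genes had a median interaction of -0.85, with 14 of 18 below 0 (51.8% of all genes), and the median ranged from -1.13 to -0.62 over the 24 alternative settings. The median log2 response was -0.23 in mdx:Utrn+/- and 0.67 in mdx. The score was apart in mdx, as were 3 of all 38 list scores, and overlapped in mdx:Utrn+/-. Beside Klf9, which belongs to this list, 2 members had an unadjusted p under 0.05. All 3 were below 0, against 1.17% of all genes. Tsc22d3, the glucocorticoid-induced leucine zipper, had 102.2, 70.1 and 55.2 scaled TPM in mdx:Utrn+/- PB1046 against 144.0, 107.9 and 107.8 in mdx:Utrn+/- saline. Tsc22d3 in mdx had 95.8, 111.4 and 207.8 with PB1046 against 59.7, 112.6 and 70.9 with saline. It was apart in mdx:Utrn+/- and overlapped in mdx, with an interaction of -1.42 (-2.45 to -0.38, unadjusted p = 0.011).

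Zbtb16, a zinc finger repressor induced by glucocorticoids, had 3.81, 1.60 and 2.31 scaled TPM in mdx:Utrn+/- PB1046 against 9.14, 5.204 and 18.7 in mdx:Utrn+/- saline. Levels of Zbtb16 in mdx were 9.66, 4.27 and 7.27 with PB1046 against 3.22, 10.2 and 5.44 with saline. The mdx:Utrn+/- groups were apart and the mdx groups intermingled, and the interaction was -1.84 (-3.24 to -0.44, unadjusted p = 0.014). Fkbp5, a co-chaperone of the glucocorticoid receptor, was at -1.66 (unadjusted p = 0.084). The labels give no hour of collection, and its part in these values was not tested. The 19 clock genes include activators and repressors, whose shifts can cancel in a median. Their median was 0.00, with 10 above 0. Of these Cry1, a repressor of the clock, was at -0.86 (-1.57 to -0.14, unadjusted p = 0.024), and Nr1d1, a strongly rhythmic gene, ranged from 4.06 to 39.2 scaled TPM over the 12 libraries with an interaction of 1.28 (unadjusted p = 0.23).

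**Figure D5:**
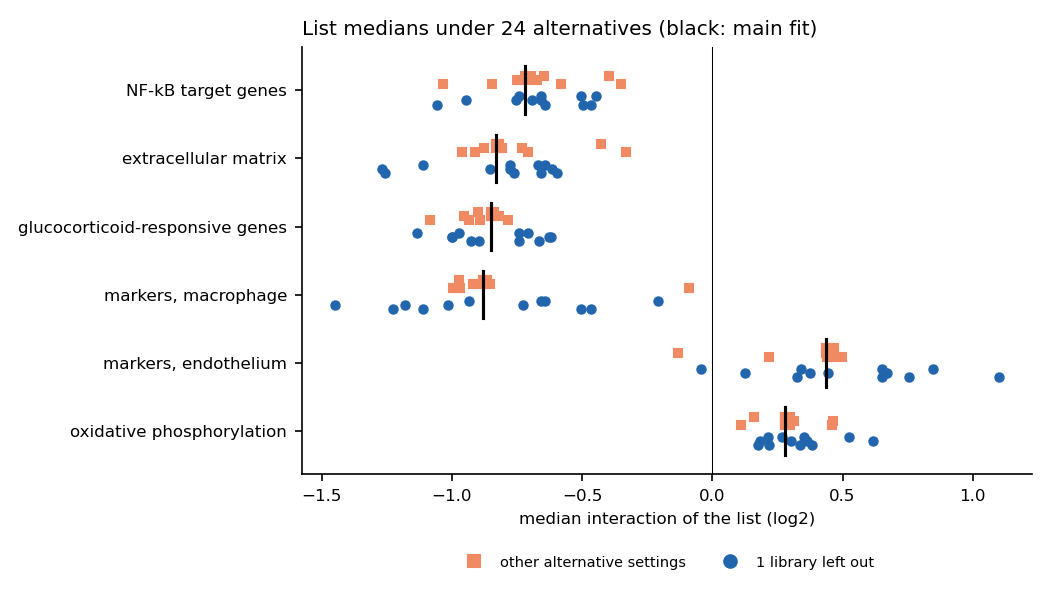
Black bars are the median interactions of 6 gene lists in the fit reported here, blue points the medians with 1 of 12 libraries left out, and orange squares those of 12 other settings, on the log2 scale. The glucocorticoid list stays between -1.13 and -0.62, while the macrophage list comes as near to 0 as -0.09 and the endothelial list crosses 0.

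Among contractile and metabolic genes of the cardiomyocyte, the lists differed in sign. Oxidative phosphorylation genes had a median interaction of 0.28, with 28 of 31 above 0 (48.2% of all genes), a median log2 response of -0.07 in mdx:Utrn+/- and of -0.40 in mdx. Ndufb9, a complex I subunit, averaged 3241 ± 677 scaled TPM in mdx:Utrn+/- PB1046 and 3181 ± 1004 in mdx:Utrn+/- saline, and 1959 ± 647 in mdx PB1046 and 3194 ± 356 in mdx saline (SD, n = 3 each). Only the mdx groups were apart, and the interaction was 0.80 (-0.10 to 1.69, unadjusted p = 0.075). The list's median was 0.16 with log2 Rn45s as a term, 0.11 with log2 depth as a term, and 0.62 without mdx:Utrn+/- PB1046 replicate 2. Replicates 2 and 3 of mdx PB1046, which had the lowest scores of this list, also had high endothelial scores (0.45 and 1.09). With the endothelial marker score as a term the list's median was 0.46, against 0.28 without. The part of endothelial RNA in these values was not tested.

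Ventricular sarcomere genes had a median of 0.18, with 12 of 18 above 0; it was 0.044 without mdx:Utrn+/- PB1046 replicate 3, 0.45 without mdx PB1046 replicate 1 and 0.025 with log2 depth as a term. Myoz2, a Z-disc protein that binds calcineurin, was at 0.67 (unadjusted p = 0.12), and Tnni3, cardiac troponin I, at 0.44 (unadjusted p = 0.29). The 20 glycolysis genes were evenly split, with 10 above 0 and a median of 0.00. Eno3, the muscle enolase, had 2152, 1657 and 2198 scaled TPM in mdx:Utrn+/- PB1046 against 1661, 1736 and 2396 in mdx:Utrn+/- saline. In mdx, Eno3 had 1779.8, 1416 and 1230.3 with PB1046 against 2119, 2155 and 2266.5 with saline. It was apart in mdx only, with an interaction of 0.64 (-0.04 to 1.32, unadjusted p = 0.064). Fatty acid oxidation and PPAR target genes had a median of -0.21 with 26 of 32 below 0 (51.8% of all genes), led by Angptl4, a lipase inhibitor, at -1.60 (unadjusted p = 0.16). That median turned to 0.035 without mdx PB1046 replicate 1, to 0.023 without mdx:Utrn+/- PB1046 replicate 2, to 0.017 without mdx saline replicate 2 and to 0.14 without the 3 libraries of the lowest library numbers. Angptl4 was at -0.78 without mdx:Utrn+/- saline replicate 1, at -2.66 without mdx:Utrn+/- saline replicate 3 and at -0.60 without those 3 libraries.

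Among the calcium handling and ion channel genes the median was 0.01. Rrad, a small GTPase that restrains L-type calcium channels, had 235.2, 158.1 and 331.6 scaled TPM in mdx:Utrn+/- PB1046 against 344.0, 324.4 and 184.8 in mdx:Utrn+/- saline. Rrad in mdx had 137.8, 116.5 and 106.9 with PB1046 against 416.0, 232.8 and 261.6 with saline. It was apart in mdx and overlapped in mdx:Utrn+/-, with an interaction of 1.04 (0.03 to 2.05, unadjusted p = 0.044). Cacna1c, the pore of the L-type channel, was at 1.11 (-0.23 to 2.45, unadjusted p = 0.097).

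The authors' deposited table holds no interaction. Its comparisons of 2 groups are headed with letter codes that the labels do not explain, and they were not assigned to groups or used here.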

How the data were processed

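Per the labels' protocols, poly-A RNA of isolated cardiomyocytes was made into stranded libraries; groups and replicate numbers come from the titles. The submitters' processing notes name edgeR, without a version, and the mm10 build; no aligner or read counter is named. The deposited values of the authors are TPM, although the table calls them raw counts: they are not whole and sum to the same total in every library. The authors' log2 fold changes, likelihood ratio scores, p-values and false discovery rates come from the same table, per the file headers, and were not used. Within a library, TPM steps gave whole reads for all 18530 genes (tolerance 0.01 reads), used for depth and for limma-voom only.

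TPM were divided by trimmed-mean factors (30% of ratios and 5% of levels trimmed; range 0.828 to 1.309), and log2(TPM + 1) was taken. limma 3.58.1 in R 4.3.3 fitted a mean per group over 12 libraries (8 residual degrees of freedom, trend and robust settings) to the genes at 1 TPM or more in 3 or more libraries. The 3 contrasts were read off, with Benjamini-Hochberg adjustment over all tested genes. Before use, the fit recovered large changes put into well-expressed genes of low spread in simulated data. That trial does not show whether smaller changes, or changes in genes of wider spread, would pass. List scores are means of centred log2 values and carry no test. Alternatives were 12 settings (scaling, pseudocount, filter, test, replicate block, covariates, libraries) and leaving out each of 12 libraries.

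Named genes are Utrn, Dmd, Vipr1, Vipr2 and Adcyap1r1, the 15 per direction with the smallest unadjusted interaction p (predicted and small RNA genes left out), up to 4 per list by p, and 2 per marker list by level; exceptions are marked in the text. One gene that this rule takes is not reported here. The 38 lists and the comparison itself were chosen with earlier results of these data known. Promoter sequences are from RefSeq (GRCm38.p6, 300 bases each), and 52 of 67 genes followed across settings matched. Gene positions are the deposited ones plus 1 at the start.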

Additional observations from a re-analysis of the deposited data

How the results depend on the processing

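No gene passed for the interaction in any of 24 alternatives except 1, Tmem181b-ps, without mdx:Utrn+/- saline replicate 3 (log2 2.49, adjusted p = 0.0331 in limma, against 1.62 and unadjusted p = 0.055 with all libraries). The number passing was thus 0 to 1 over the 12 fits with 1 library left out. The count at an unadjusted p under 0.05, 288 with all libraries, was 157 (without mdx saline replicate 3) to 1255 (without mdx:Utrn+/- saline replicate 3), and 180 without mdx:Utrn+/- saline replicate 1. It was 515 with no filter and 176 with a filter of 5 TPM, which tested more and fewer genes. It was 500 with the endothelial marker score as a term and 175 with log2 depth as a term; the cause was not tested. The correlation between responses was 0.29 without the 3 libraries of the lowest library numbers, and -0.26 to 0.15 with 1 library left out.

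Of 67 genes followed, 64 kept their direction in every alternative that tested them. Utrn was at -0.29 without the 3 libraries of the lowest library numbers and at -0.21 with the endothelial term, and at -0.28 to 0.29 with 1 library left out. For Dmd the values were -0.16 without those 3 libraries and -0.29 to 0.37 with 1 left out, and for C1qb 0.039 and -1.44 to 0.082. The smallest adjusted p of any followed gene in any alternative was 0.181. Of 911 recomputed list medians, 39 moved by more than the SD of that list's score between libraries within a group. This SD was wide for some lists (0.69 for endothelial, 0.81 for macrophage, and 1.29 for erythroid and platelet markers), so their medians could shift far uncounted. The endothelial median ran from -0.04 to 1.10 with 1 library left out and was not counted as moved. The 39 is therefore no measure of stability. With the replicate block 0 genes passed and 364 had an unadjusted p under 0.05; deviations of same-numbered libraries correlated at 0.49 for mdx replicate 1 and at -0.040 to 0.083 for the other 5 pairs, so the numbers were not taken as a pairing.

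Precision is set by 3 libraries a group and by the shallowest library (7234100 reads); genes near the 1 TPM filter rest on few reads, and intervals cover only the spread between these libraries.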

Other observations

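Stress and protein synthesis genes not described above had small list medians of either sign, beside a median of -0.01 with 51.8% below 0 over all genes. Interferon response genes had a median of 0.14 with 18 of 28 above 0, while Isg15, a ubiquitin-like protein induced by interferon, was at -0.67 (limma unadjusted p = 0.13) with 12.9, 19.9 and 12.8 scaled TPM in mdx:Utrn+/- PB1046 against 14.6, 18.0 and 11.4 in mdx:Utrn+/- saline, and 15.6, 31.6 and 26.1 in mdx PB1046 against 10.8, 13.9 and 18.1 in mdx saline. Cytosolic ribosomal protein genes had a median of 0.08 with 21 of 30 above 0, heat shock genes one of -0.11 with 11 of 17 below 0, and genes of the unfolded protein response one of -0.20 with 17 of 22 below 0. Oxidative stress and metallothionein genes had a median of -0.15 with 19 of 23 below 0. With 1 library left out, each of these medians except that of the unfolded protein response took both signs: the lowest and highest were -0.15 and 0.41 for interferon response genes, -0.024 and 0.29 for ribosomal protein genes, -0.35 and 0.32 for heat shock genes, and -0.31 and 0.065 for oxidative stress and metallothionein genes. For the unfolded protein response they were -0.34 and, without mdx:Utrn+/- PB1046 replicate 2, -0.014. None of these lists held a gene with an unadjusted p under 0.05.

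Erythroid RNA differed strongly between single libraries. Hba-a1, a haemoglobin alpha gene that shares nearly all its sequence with Hba-a2, had 32.5, 110.7 and 12.5 scaled TPM in mdx:Utrn+/- PB1046 against 68.3, 22.0 and 6.45 in mdx:Utrn+/- saline. In mdx it had 28.9, 10.2 and 151.8 with PB1046 against 8.88, 14.5 and 2.88 with saline. All 9 tested members of the erythroid and platelet list were on average higher with PB1046 in both genotypes. Their median log2 response was 0.71 in mdx:Utrn+/- and 1.91 in mdx. The list had a median interaction of -0.73, of -0.014 without mdx PB1046 replicate 3 and of -2.06 without mdx:Utrn+/- PB1046 replicate 2.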
